A study of Macaca mulatta with 16 samples.

Results

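The genes described here encode the enzymes that carry pyruvate into the mitochondrion's central oxidative pathway: the pyruvate dehydrogenase complex with its kinases and its phosphatase, the enzymes of the tricarboxylic acid (TCA) cycle, complex II of the respiratory chain, pyruvate carboxylase and the malic enzymes. Members were taken by gene symbol. Every probe set of both array types whose platform symbol, alone or within a list of symbols, was among 32 listed genes was included. That gave 69 probe sets for 30 genes: 54 of the 22283 probe sets on the array type U133A, for 30 genes, and 15 of the 22645 on U133B, for 11 genes, which are all on U133A too. A probe set is a group of short probes read as a single intensity, and 15 of the genes had more than 1 on U133A. FH, which encodes fumarate hydratase, and SDHB, the iron-sulfur subunit of complex II, were not analysed here. ACO1, the cytosolic aconitase and iron regulatory protein, stands in the list for the aconitase step, which in the mitochondrial cycle is carried out by a different enzyme.

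The samples were extraocular muscle, the muscle that moves the eye, of adult rhesus macaques with no stated genotype or treatment. The groups were the orbital layer, on the side facing the orbit wall, the global layer, on the side facing the eye, whole medial rectus and whole lateral rectus. Each group had 2 arrays of each type, a number that limits how precise any value below can be. According to the labels, the layers were microdissected and their RNA went through a T7 amplification, while whole muscle RNA followed the standard Affymetrix protocol, so tissue taken and amplification cannot be told apart in any comparison of layers with whole muscle. The arrays carry human probes, and where a macaque transcript differs from the probes its signal is affected in a way not measured here.

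Pyruvate dehydrogenase turns pyruvate into acetyl-CoA inside the mitochondrion. Citrate synthase joins acetyl-CoA to oxaloacetate, and the cycle that follows oxidises it, passing electrons to NADH and, through succinate dehydrogenase, directly to the respiratory chain, of which that enzyme is complex II. Kinases switch pyruvate dehydrogenase off by phosphorylating it and a phosphatase switches it back on, which lets muscle choose between carbohydrate and fat. Extraocular muscle is known for a high mitochondrial content, and fibres of the orbital layer are known as especially rich in mitochondria.

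Some features of the arrays bear on all values below. On U133A, orbital layer replicate 1 has a title naming the orbital layer and a source name naming the global layer; the title was used. For replicate 1 of the global layer on U133B, the source name does not say which layer it is. The 3' to 5' signal ratio of ACTB (beta-actin), which is higher where RNA or its copies are shortened, was 5.30 and 5.87 in orbital layer, 2.84 and 2.88 in global layer and 0.716 to 1.04 in whole muscle on U133A. On U133B it was 4.43 to 5.29 on orbital and 3.54 to 3.61 on global arrays, against 0.512 to 0.933 in whole muscle. The same ratio for GAPDH did not separate the layers on either array type. In U133A data, its orbital values, 1.734 and 1.999, fell between the global values, 1.497 and 2.922. In U133B data, the orbital values were 2.494 and 3.738, again between the global ones, 2.04 and 4.33. The summed intensity of 8 muscle fibre markers was 531234.1 and 566327.5 on orbital arrays, against 587569.8 and 653612 on global arrays, so the groups did not overlap. None of the 8 was below the intensity filter on all arrays. The single markers did not share a direction. CKM, MYH4, MYH13 and TNNC2 were lower on both orbital arrays, MYH2, MB and DES were higher on both, and ACTA1 overlapped. Sums of 4 endothelial markers were 12309.5 to 12562.1 in orbital and 15935.7 to 18991.5 in global layer, those of 5 adipocyte markers 2494.7 to 2874.3 and 4622.3 to 7601.9 (with 3 of the 5, the defining ADIPOQ, PLIN1 and LEP, below the filter on all arrays), and those of 5 fibroblast markers 227025.5 to 258720.8 and 191806.4 to 194514.2. These sums are of U133A, and not every single marker separated the layers. FABP4, VWF and TEK were lower on both orbital arrays, while CIDEC, PECAM1 and CDH5 overlapped. COL1A1, COL3A1 and PDGFRA were higher on both orbital arrays, while COL1A2 and DCN overlapped. The part of these differences in the results below was not tested. In bulk tissue, fewer cells of a type and less RNA per cell cannot be told apart. Nothing says that the samples came from separate animals, so the p-values cover the spread among these samples alone, which may be technical, and since the microdissected regions are not tied to animals, p-values between the layers may be too small.

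Between the layers, no member passed the test. Values are log2 differences, orbital minus global, from limma with Benjamini-Hochberg adjustment over all probe sets kept, and a call needs an adjusted p under 0.05. On U133A, 47 of the 54 member probe sets, of 27 genes, were bright enough to be tested, and 0 were called, against 0.409% of 9532 probe sets in all. At an unadjusted p under 0.05 there were 11 of 47 member probe sets, or 23.4%, against 9.49% of all. On U133B, 11 of 15 were tested and 0 called, against 0.021% of 9510, and 3 had an unadjusted p under 0.05, against 7.76% of all. On U133A, 32 of the 47 member differences were below 0, with a median of -0.13, while 5148 of all 9532 were below 0, with a median of -0.04. Both orbital arrays lay below both global arrays for 23 of the 47 (48.9%), against 23.4% of all probe sets, and above them for 3, against 18.5% of all. On U133B the median was 0.22 over the 11 and 0.03 over all, and 6 of the 11 were above 0, so the sign of the median was not the same on the 2 array types.

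**Figure D1:**
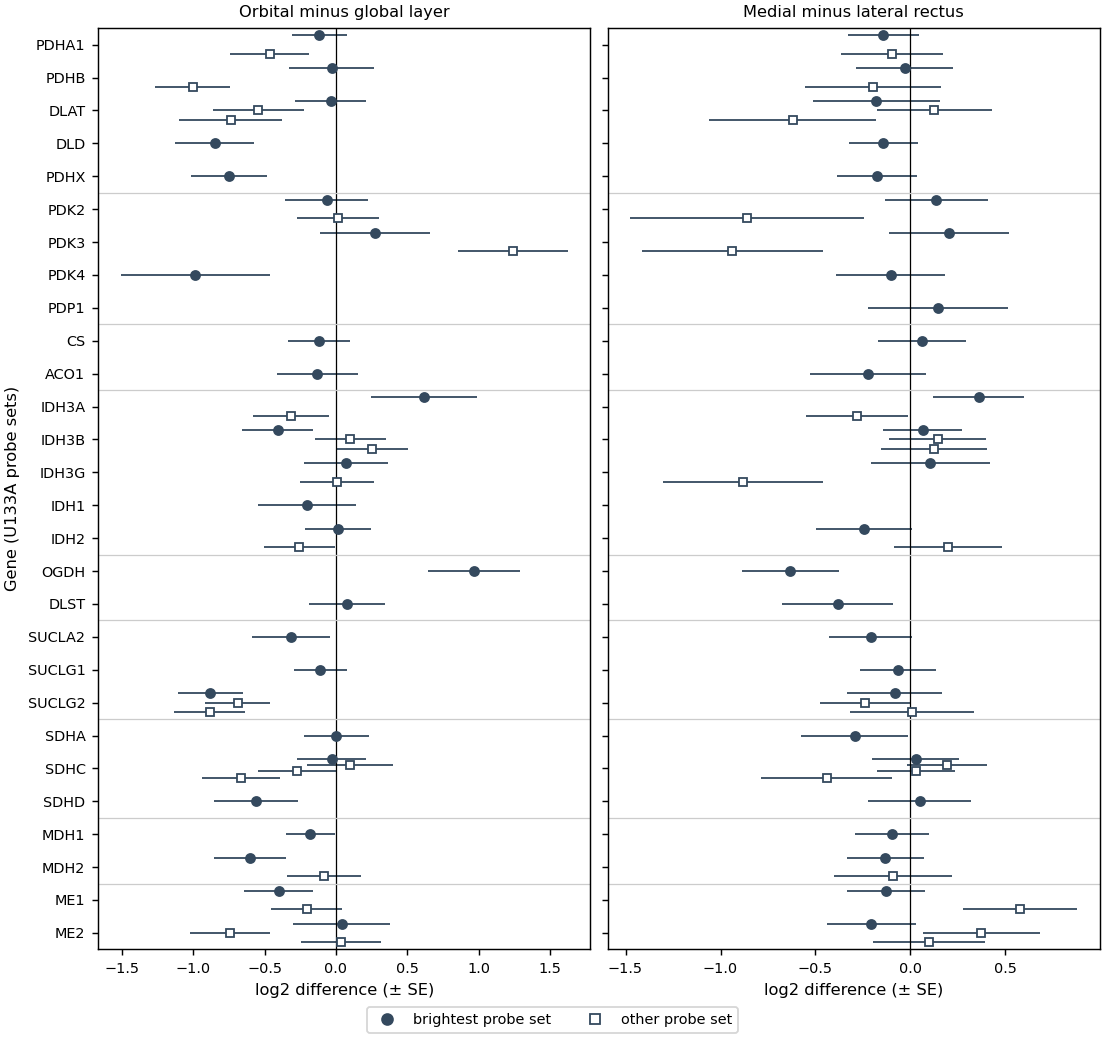
Log2 differences (horizontal axis, ± SE) of every tested U133A member probe set, orbital minus global layer on the left and medial minus lateral rectus on the right, with genes ordered by enzyme and separated by grey lines. Filled circles are each gene's brightest probe set and open squares its others; all 9 probe sets of the pyruvate dehydrogenase complex and all 5 of succinyl-CoA ligase lie below 0 in the left panel, and none passed the test in either panel.

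In the pyruvate dehydrogenase complex, all 9 tested U133A probe sets were lower in orbital than in global layer in value. They ran from -1.0 to -0.03 with a median of -0.55. The arrays did not overlap for 7 of them, against 23.4% of all probe sets with both orbital arrays lower. The 9 probe sets were of 5 genes, so some read the same gene. PDHX, which encodes the component that binds dihydrolipoamide dehydrogenase to the core of the complex, read 6991.7 and 9559.9 on the orbital arrays, against 11974.9 and 15725.6 on the global arrays. The orbital arrays were both below the global arrays, and the difference was -0.75 ± 0.267 (SE, n = 2 each; adjusted p = 0.434), which is 1.68-fold. DLD, dihydrolipoamide dehydrogenase, is shared with the oxoglutarate dehydrogenase complex. It read 11134.3 and 16161.1 on orbital, against 20258.7 and 28857.4 on global arrays, again without overlap, for a difference of -0.85 ± 0.279 (adjusted p = 0.390).

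DLD was measured by a second probe set on U133B, where it had intensities of 1956.0 and 3293.5 in orbital layer, against 4698.1 and 5891.0 in global layer. The sign and the separation were the same there, at -1.05 ± 0.344 with an adjusted p of 0.525. The arrays of the 2 types may hold the same RNA, which the labels do not say, so this is not shown to be a second sample. PDHA1, the catalytic alpha subunit that the kinases phosphorylate, differed by -0.12 and -0.46 in its 2 probe sets, and DLAT, the acetyltransferase core, by -0.04, -0.54 and -0.74 in its 3. PDHB, the beta subunit, gave readings that depended on the probe set. The brighter, 208911_s_at, had 10016.9 and 14215.8 on orbital, against 9745.6 and 15250.3 on global arrays, which overlap, and a difference of -0.03. The other, 211023_at, read 2693.1 and 2973.0 on orbital, against 6546.0 and 4910.6 on global arrays, at -1.0 ± 0.262 with an adjusted p of 0.283. That probe set was singled out after its values were seen.

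The regulators of the complex did not share a direction. PDK4, the kinase induced by fasting and fat use, read 1288.5 and 387.9 on orbital, against 1430.2 and 1371.8 on global arrays of U133A, with the second orbital array far under the others. Its difference was -0.99 ± 0.523 with an adjusted p of 0.594. On U133B it read 2608.3 and 2045.4 on orbital, against 4344.6 and 2665.8 on global arrays, with no overlap, at -0.56. PDK3, a kinase with little sensitivity to pyruvate, was higher in orbital layer in value in all 4 of its tested probe sets, without a call. On U133B its brighter probe set 228959_at had 5577.0 and 6696.2 on orbital, against 2899.9 and 4174.4 on global arrays, for a difference of 0.81 ± 0.304 (adjusted p = 0.607), and its other probe set there had 0.60 with overlapping arrays. On U133A the brightest PDK3 probe set, 221957_at, gave 0.27 with overlapping arrays, and 206348_s_at, chosen after its values were seen, read 1429.7 and 1138.6 on orbital, against 716.2 and 406.6 on global arrays, at 1.24 ± 0.384 with an adjusted p of 0.360. The brightest PDK1 probe set of U133B, for a kinase induced in low oxygen, read 2926.2 and 3176.4 on orbital, against 4551.5 and 4146.3 on global arrays, at -0.51 ± 0.278 with an adjusted p of 0.730. PDK2, the most widespread kinase, differed by -0.07 and 0.01. PDP1, the phosphatase that reactivates the complex in muscle, was below the filter between the layers on U133A, where it read 476.7 and 447.1 on orbital, against 1183.8 and 645.6 on global arrays, and differed by -0.04 on U133B with wide scatter.

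**Figure D2:**
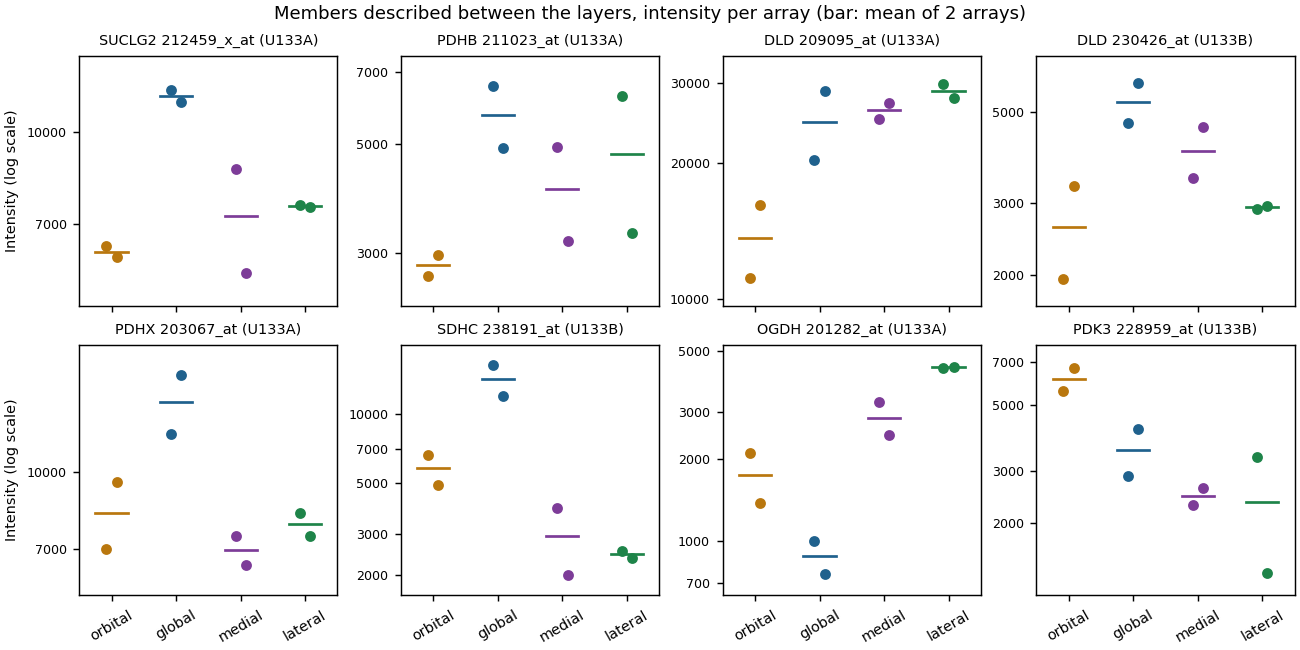
Intensity (vertical axis, log scale, authors' scaled units) on each array for 8 member probe sets described between the layers, with orbital and global layer beside medial and lateral rectus. Points are single arrays and bars the mean of 2; the orbital arrays lie below the global arrays for SUCLG2, PDHB 211023_at, DLD, PDHX and SDHC 238191_at, and above them for OGDH and PDK3.

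At the entry of the cycle, CS, citrate synthase, which is widely used as a measure of mitochondrial content, read 11443.7 and 11296.7 on orbital, against 12468.3 and 12191.7 on global arrays. The orbital arrays were both lower, by a small amount, and the difference of -0.12 ± 0.218 was within its error (adjusted p = 0.896). ACO1 differed by -0.13 with overlapping arrays on U133A and by 1.04 ± 0.971 on U133B, where the global arrays read 193.9 and 2131.7. The 10 tested probe sets of the isocitrate dehydrogenases had a median of 0.01, with 6 above and 4 below 0. IDH3A, the catalytic subunit of the NAD-dependent enzyme, differed by 0.62 in its brightest probe set and by -0.31 in its other on U133A, and by 0.47 on U133B. Values for IDH3B, which encodes a regulatory subunit, ran from -0.41 to 0.26 over 3 probe sets, and those for IDH3G, also a regulatory subunit, were 0.07 and 0.01. IDH2, the mitochondrial NADP-dependent enzyme, had 0.01 and -0.26, and IDH1, its cytosolic counterpart, -0.20.

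OGDH went the opposite way to most members. It encodes the component of the oxoglutarate dehydrogenase complex that decarboxylates 2-oxoglutarate, and its intensity was 2107.4 and 1386.8 on orbital, against 1005.6 and 760.0 on global arrays. Both orbital arrays exceeded both global arrays, at 0.97 ± 0.324, 1.96-fold, with an adjusted p of 0.397. DLST, the succinyltransferase core of the same complex, had 0.08 with overlapping arrays.

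Succinyl-CoA ligase, which makes a nucleoside triphosphate directly in the cycle, had all 5 tested probe sets below 0, with a median of -0.69, and 3 of the 5 were of SUCLG2, its GTP-forming beta subunit. The brightest SUCLG2 probe set, 212459_x_at, read 6410.7 and 6132.9 on orbital, against 11828.8 and 11265.0 on global arrays. The groups were far apart and the arrays within each close together, at -0.88 ± 0.226 (1.84-fold) with an unadjusted p of 0.00469 and an adjusted p of 0.271. The 2 further tested SUCLG2 probe sets gave -0.88 and -0.69, also without overlap; the names of 2 of the 3 end in _x_at, which marks probes that can match other sequences. SUCLA2, the ATP-forming beta subunit, differed by -0.31, with 12479.6 on the first global array and 7836.8 to 8457.5 on the other layer arrays. SUCLG1, the alpha subunit that both forms share, differed by -0.11.

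For complex II, the flavoprotein subunit SDHA differed by 0.00 ± 0.227, at 11647.5 and 13910.0 on orbital, against 12256.2 and 13160.7 on global arrays. Its only U133A probe set, 201093_x_at, also has a name ending in _x_at, so its probes can match other sequences. SDHD, a membrane anchor subunit, read 1256.3 and 1895.8 on orbital, against 2476.2 and 2094.3 on global arrays, at -0.56. SDHC, the other anchor, gave -0.03, 0.10, -0.27 and -0.67 over its 4 tested U133A probe sets. On U133B, SDHC 238191_at read 6643.1 and 4920.8 on orbital, against 16258.0 and 11982.0 on global arrays. Both orbital arrays were well below both global arrays, at -1.29 ± 0.292, 2.44-fold, with an unadjusted p of 0.00236 and an adjusted p of 0.323, while the second SDHC probe set on that array type had 0.22.

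Of the malate dehydrogenases, mitochondrial MDH2 read 28604.2 and 39196.3 on orbital, against 60570.0 and 42822.6 on global arrays in its brightest probe set, at -0.61 ± 0.252 (adjusted p = 0.507), and -0.08 in its other. Cytosolic MDH1, which works with MDH2 in the malate-aspartate shuttle, had -0.18 with both orbital arrays lower. ME1, the cytosolic malic enzyme that makes NADPH, differed by -0.40 and -0.21, and ME2, a mitochondrial malic enzyme, by 0.04, 0.04 and -0.74. The last of these, 209397_at, had 1644.7 and 2041.4 on orbital, against 3552.8 and 2644.9 on global arrays. PC, pyruvate carboxylase, which refills oxaloacetate, was too dim for any comparison: on U133A it read 423.7 and 54.3 on orbital, against 92.8 and 82.0 on global arrays, with 3 of its 8 arrays at the lower limit set for the intensities.

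Because orbital layer replicate 1 on U133A has the conflicting source name, the layer comparison was repeated without it. The member median became -0.18, against -0.05 over all probe sets, and 37 of 48 tested member probe sets were below 0. This repeat leaves 1 orbital array, so it cannot show whether the share of small unadjusted p-values given above depends on that array. The other layer arrays of that table were also left out in turn. Without orbital layer replicate 2, 30 of 48 member probe sets were below 0, with a median of -0.13. Without global layer replicate 1, 39 of 47 were, with a median of -0.21, and without global layer replicate 2, 31 of 47, with -0.13. The medians over all probe sets were -0.03, -0.03 and -0.07 in these fits. On U133B, leaving out the global array with no stated layer gave a member median of 3.9e-04, against 0.02 over all probe sets. In the alternatives in which each was tested (13, but 12 for OGDH, which the filter at the 75th percentile left out), SUCLG2 212459_x_at stayed between -0.92 and -0.83, with adjusted p from 0.122 to 0.756, DLD on U133A between -1.12 and -0.58 (adjusted p from 0.127 to 0.896), OGDH between 0.67 and 1.27 (0.144 to 0.921) and SDHC 238191_at between -1.51 and -1.03 (0.114 to 0.709).

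Of the 25 other genes listed for the pathway (carriers of pyruvate and malate, lipoate enzymes, assembly factors and related enzymes), 13 were tested between the layers on U133A in 17 probe sets. None passed, against 0.409% of all, and their median was -0.07. An unadjusted p under 0.05 was found for 1, against 9.49% of all. That probe set was for SLC25A12, a mitochondrial aspartate-glutamate carrier, at -0.77, and a second SLC25A12 probe set had -0.29. On U133B 5 of these genes were tested in 6 probe sets, with 0 calls, against 0.021% of all. There 1 had an unadjusted p under 0.05, against 7.76% of all, and it was for SLC25A13, at 1.16.

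Between the 2 whole muscles, no member passed the test, and no other probe set did either. Medial rectus pulls the eye towards the nose and lateral rectus away from it. On U133A, 47 member probe sets were tested and 0 were called, against 0% of 11907, while 1 had an unadjusted p under 0.05, against 2.8% of all. The median of medial minus lateral over the members was -0.10, with 28 of 47 below 0, and over all probe sets it was 0.00. Both medial arrays were above both lateral arrays for 4 of 47, against 15% of all, and below for 8, against 13.6%. On U133B, 11 were tested and 0 called, against 0% of 11836, with 0 at an unadjusted p under 0.05, against 3.43% of all, and the median was 0.18 against -0.03 over all.

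OGDH had the smallest p of the members between the muscles. Its intensity was 3250.7 and 2451.6 on medial, against 4360.7 and 4389.7 on lateral arrays, with no overlap, at -0.63 ± 0.256 (unadjusted p = 0.0382, adjusted p = 0.999). DLST, its partner, had 4410.1 and 4672.5 on medial, against 7763.6 and 4519.9 on lateral arrays, which overlap and of which the first lateral array is high, at -0.38 ± 0.290. IDH3A 202070_s_at, at 5362.9 and 4327.5 on medial, against 3914.0 and 3608.2 on lateral arrays, gave 0.36 ± 0.239, while its other probe set had the opposite sign, at 3606.9 and 5543.5 on medial, against 5668.5 and 5218.8 on lateral arrays. SDHA read 8953.9 and 5159.6 on medial, against 8630.0 and 8030.1 on lateral arrays, which overlap, at -0.29 ± 0.282.

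The pyruvate dehydrogenase complex had 8 of 9 probe sets below 0 in medial against lateral rectus, with a median of -0.14, and adjusted p of 0.999 throughout. CS read 28645.8 and 19211.6 on medial, against 21561.5 and 23448.0 on lateral arrays, which overlap, and differed by 0.06. On U133B the 4 members with the smallest p among the brightest probe sets were DLD, PDK4, IDH1 and ACO1, and all 11 had an adjusted p of 0.991 to 0.997. DLD read 3450.5 and 4587.7 on medial, against 2903.3 and 2957.9 on lateral arrays, without overlap, at 0.44 ± 0.343, where U133A gave -0.14. PDK4 read 2109.6 and 423.5 on medial, against 1538.8 and 2198.5 on lateral arrays, with the second medial array far below the other 3, at -0.96 ± 0.805. IDH1 read 1284.7 and 977.5 on medial, against 654.3 and 665.0 on lateral arrays, at 0.76 ± 0.767, and ACO1 had 1395.8 and 1456.1 on medial, against 1861.1 and 1978.2 on lateral arrays, at -0.43 ± 0.498. Both of these were without overlap. Of the 14 genes with several tested probe sets on U133A, 10 had probe sets of both signs between the muscles, and 6 of 14 did between the layers. Between the muscles, 13 of the 25 other pathway genes were tested in 17 probe sets on U133A, and 7 in 8 probe sets on U133B. These gave 0 calls on either array type, against 0% of all probe sets. The summed red blood cell markers were 29409.5 and 47966 on medial, against 122397.7 and 137757.6 on lateral arrays of U133A. HBA1 and HBA2 share a single probe set, which these sums count for each of them, and ALAS2 was below the filter on all arrays. HBB alone read 12872.6 and 8908.7 on medial, against 32865.1 and 25640.9 on lateral arrays. The part of red blood cell markers in these values was not tested.

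Between layers and whole muscle, many members passed the test, and so did many probe sets of every kind. The 4 layer arrays of each table, both layers together, were set against its 4 whole muscle arrays, so the SD of the layers holds any difference between them. On U133A, 26 of 46 tested member probe sets (56.5%) were called, against 48.7% of 10533. Higher in the layers were 13, against 18.6% of all, and lower 13, against 30.1% of all. The calls fell on 19 of 27 genes, 7 with higher calls only, 10 with lower calls only and 2 with both. The median of layers minus whole muscle was 0.06 over the members and -0.18 over all probe sets. On U133B, 5 of 10 tested were called, against 42.8% of 10547. Of these, 4 were higher, against 20.5% of all, and 1 lower, against 22.3%. Quantile normalization in place of a common mean moved the median of all U133A probe sets by over 0.1, to 0.00, and left 9 higher and 10 lower member calls, with a member median of 0.00; the split of all calls then had 50.4% higher, against 38.3% with the common mean. ACTB ratios and median intensities of the layers and of whole muscle did not overlap. GAPDH ratios of the layers and of whole muscle overlapped on U133A and did not on U133B. Sums of the 4 pericyte and smooth muscle markers were 33475.1 to 37322.5 in the layers, against 14425.5 to 25801.8 in whole muscle on U133A. On U133B they were 5286.1 to 6478.3 in the layers, against 6952.5 to 11167.3 in whole muscle. There ACTA2, MYH11 and RGS5 were below the filter on 6, 6 and 7 arrays, and TAGLN on 0. The 3 of 5 fibroblast markers found on U133B summed to 10875.5 to 15184.6 in the layers, against 4729.2 to 6434.6 in whole muscle. COL1A2 and COL3A1 were higher in the layers there. DCN went the other way, at 483.9 to 1205.8 in the layers and 2101.1 to 2875.2 in whole muscle. On U133A all 5 fibroblast markers gave 191806.4 to 258720.8 in the layers, against 206051.9 to 267328 in whole muscle, which overlap. Lists represented by 1 marker gene were lower in the layers without overlap for muscle fibre (MB, 1 of 8) and endothelium (VWF, 1 of 4) on U133B and for Schwann cells (S100B, 1 of 3) on U133A, of which VWF and S100B were below the filter on all arrays. On U133A the sums of muscle fibre, red blood cell, adipocyte, endothelial and immune markers overlapped. The part of these measures in the calls was not tested.

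**Figure D3:**
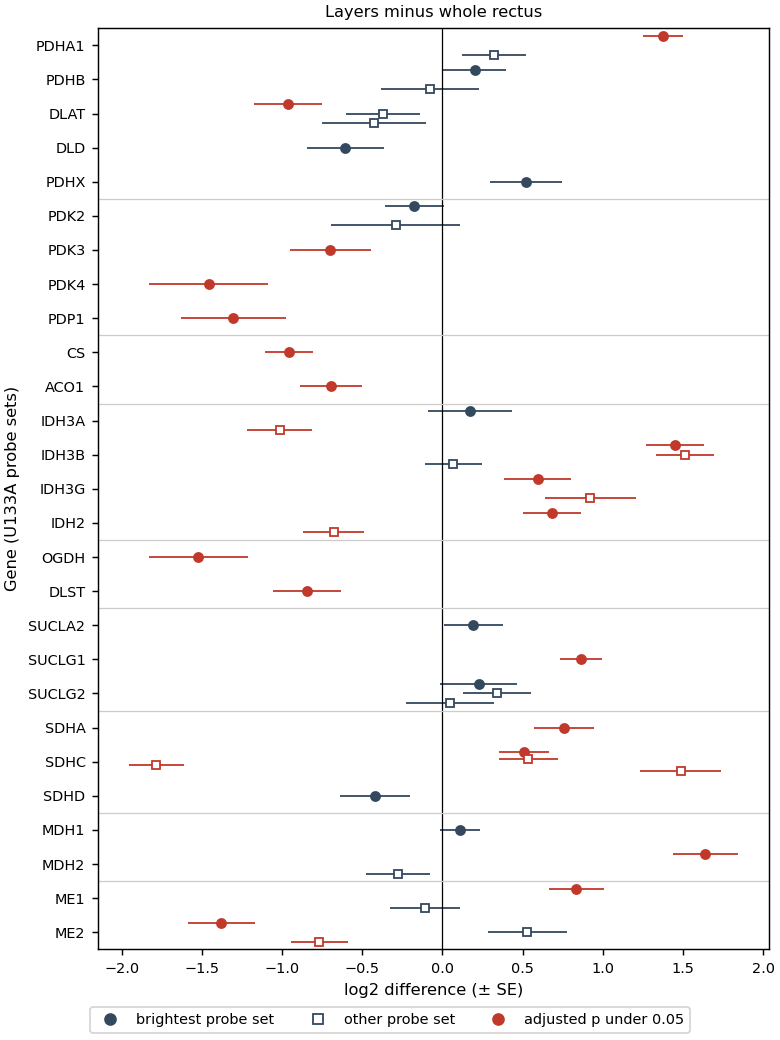
Log2 differences (horizontal axis, ± SE), layers minus whole rectus, of every tested U133A member probe set, 4 arrays against 4, with genes ordered by enzyme. Red marks have an adjusted p under 0.05, circles are each gene's brightest probe set and squares its others; PDHA1, IDH3B and MDH2 are far to the right, OGDH, PDK4 and ME2 far to the left, and SDHC has red marks on both sides.

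Within the pyruvate dehydrogenase complex 2 probe sets passed, in opposite directions. PDHA1 read 35205.2 and 35982.5 on orbital, 37477.1 and 39733.0 on global, 13203.3 and 13966.2 on medial, against 15067.2 and 14936.1 on lateral arrays. All layer arrays were above all whole muscle arrays, and PDHA1 rose 2.60-fold, at 1.38 ± 0.126 (SE, n = 4 each; adjusted p = 2.6e-05), but its other probe set had 0.32 and did not pass. DLAT in its brightest probe set read 2700.9, 2373.0, 2518.7 and 2680.0 on the layer arrays and 3658.7, 6051.2, 4165.7 and 6812.7 on the whole muscle arrays, orbital before global and medial before lateral. It averaged 2568 ± 153 in the layers and 5172 ± 1502 in whole muscle (SD, n = 4 each), and fell by 0.97 (adjusted p = 0.00316), with its other 2 probe sets at -0.37 and -0.43, not called. DLD (-0.61, adjusted p = 0.0533), PDHX (0.52, 0.0731) and PDHB (0.20 and -0.08) did not pass on U133A, and DLD had 0.10 on U133B. PDHX passed in 2 of its 16 alternatives. DLD passed in 5 of its 16, among them quantile normalization (-1.11, adjusted p = 0.00396).

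All 5 tested U133A probe sets of the regulators were below 0 in the layers, and 3 of them passed. PDK4 read 1288.5, 387.9, 1430.2 and 1371.8 on the layer arrays, orbital first, and 2901.6, 2398.6, 3342.3 and 2402.8 on whole muscle arrays, medial first. The groups did not overlap, and PDK4 fell by 1.46 (adjusted p = 0.00692), but on U133B it had 1.09 with an adjusted p of 0.0821. PDP1 read 447.1 to 1183.8 in the layers and 1127.6 to 1973.1 in whole muscle, where 1 array overlapped, and fell by 1.30 (adjusted p = 0.00678), a call lost with quantile normalization, at -0.77. PDK3 fell by 0.70 on U133A in 221957_at (adjusted p = 0.0378), a call lost in 8 of 15 alternatives. Its other U133A probe sets were below the filter, untested, and went both ways. Of these, 206348_s_at read 406.6 to 1429.7 in the layers and 65 to 148.2 in whole muscle. The other, 206347_at, read 12.6 to 359.2 in the layers and 568.5 to 1265.3 in whole muscle. On U133B PDK3 rose in both probe sets. The rise was 1.00 ± 0.327 in 228959_at (adjusted p = 0.0262), a call lost in 4 alternatives, and 1.76 ± 0.480 in 230085_at (adjusted p = 0.0112). PDK1 was called on U133B in both directions, at 0.70 ± 0.249 in 226452_at (adjusted p = 0.0380) and -0.92 ± 0.318 in 239798_at (adjusted p = 0.0327). Those PDK1 calls were lost in 6 and 7 alternatives. PDK2 had -0.18 and -0.29 and did not pass, and PDK1 on U133A read 64.6 to 121.4 in the layers and 93.7 to 266.6 in whole muscle, too dim to test.

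CS averaged 11850 ± 569 in the layers and 23217 ± 4013 in whole muscle (SD, n = 4 each). The lowest whole muscle array, at 19211.6, was far above the highest layer array, at 12468.3, and CS fell by 0.96 (SE 0.151, adjusted p = 4.93e-04), 1.94-fold. ACO1 fell by 0.70 on U133A (adjusted p = 0.0119), a call lost with quantile normalization. The oxoglutarate dehydrogenase pair fell together, OGDH by 1.52 (SE 0.308, adjusted p = 0.00199, 2.88-fold) and DLST by 0.84 (SE 0.210, adjusted p = 0.00623), with 760.0 to 2107.4 in the layers and 2451.6 to 4389.7 in whole muscle for OGDH. DLST read 2854.7 and 3089.8 in orbital layer, 2412.1 and 3272.5 in global layer and 4410.1 to 7763.6 in whole muscle, so neither gene had overlapping arrays.

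The isocitrate dehydrogenases had 5 of 9 tested probe sets higher and 2 lower. The brightest IDH3B probe set read 25440.4 and 29587.5 in orbital layer and 29642.9 and 44665.4 in global layer, against 10706.6 and 13066.8 in medial and 12037.2 and 10636.3 in lateral rectus. IDH3B averaged 32334 ± 8453 in the layers and 11612 ± 1165 in whole muscle (SD, n = 4 each), with every layer array above every whole muscle array. It rose there by 1.45 ± 0.180 (adjusted p = 1.26e-04) and by 1.52 in 210014_x_at, while 201509_at gave 0.07. IDH3G rose by 0.59 and 0.92 (adjusted p = 0.0325 and 0.0185), with overlapping arrays and with calls lost in 7 and 3 alternatives. IDH3A had 0.17 in its brightest probe set and fell by 1.02 in the other (adjusted p = 0.00183).

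IDH2 was called both ways. The bright probe set 210046_s_at read 39465.5 to 53604.5 in the layers and 21506.8 to 35820.3 in whole muscle, and rose by 0.68 (adjusted p = 0.00828), while 210045_at, shown because its sign was seen to differ, read 1780.6 to 2301.0 in the layers and 2568.3 to 3976.2 in whole muscle, and fell by 0.68 (adjusted p = 0.0117). With quantile normalization the first of these calls was lost, at 0.24. IDH1 read 634.1 to 760.6 in the layers and 220.0 to 493.1 in whole muscle on U133A, below the intensity filter.

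For succinyl-CoA ligase all 5 tested probe sets were above 0, and 1 passed. SUCLG1 read 55681.7 and 52751.2 in orbital layer and 55085.2 and 61959.1 in global layer, against 33317.2 and 27374.6 in medial and 34232.1 and 29214.5 in lateral rectus. It averaged 56369 ± 3935 in the layers and 31035 ± 3273 in whole muscle (SD, n = 4 each), with no overlap, and rose by 0.86 (SE 0.130, adjusted p = 3.66e-04). SUCLA2 had 0.19, and SUCLG2 had 0.05 to 0.34 over 3 probe sets, which did not pass.

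For complex II, SDHA 201093_x_at, whose probes can match other sequences, rose by 0.76 (adjusted p = 0.00606). It read 11647.5 to 13910.0 in the layers and 5159.6 to 8953.9 in whole muscle, and lost the call with quantile normalization, at 0.32. SDHD had -0.42 and did not pass. The SDHC probe sets went far apart. SDHC 216591_s_at read 1591.9 to 2483.9 in the layers and 6660.8 to 7065.4 in whole muscle, and fell by 1.79 (SE 0.173, adjusted p = 3.4e-05). SDHC 215088_s_at read 3224.1 to 6565.8 in the layers and 1097.6 to 1919.8 in whole muscle, and rose by 1.49 ± 0.252 (adjusted p = 7.2e-04). These SDHC probe sets were chosen after their values were seen. Quantile normalization kept both calls, whereas it ended those of the 2 brightest, 210131_x_at and 202004_x_at, which had risen by 0.51 and 0.54 and which lost the call in 3 and 9 alternatives in all. On U133B, 238191_at read 3898.6 and 1987.5 in medial and 2538.4 and 2364.7 in lateral rectus, all below the layer arrays given above. It averaged 9951 ± 5169 in the layers and 2697 ± 833 in whole muscle, and rose by 1.77 ± 0.352 (adjusted p = 0.00204), and kept the call in all 16 alternatives, while 238056_at gave -0.09.

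The SDHA probe set of U133B, 230077_at, carries the symbols of SDHA and of 3 more SDHA-derived loci. It read 481.4 and 229.8 on orbital, 977.5 and 626.9 on global, 82.2 and 90.2 on medial, against 589.4 and 1723.6 on lateral arrays. The medial arrays were the lowest. The probe set is counted under SDHA in the numbers of members, and it was not tested in any comparison. With so dim a signal and several symbols, its values were not read as those of SDHA.

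**Figure D4:**
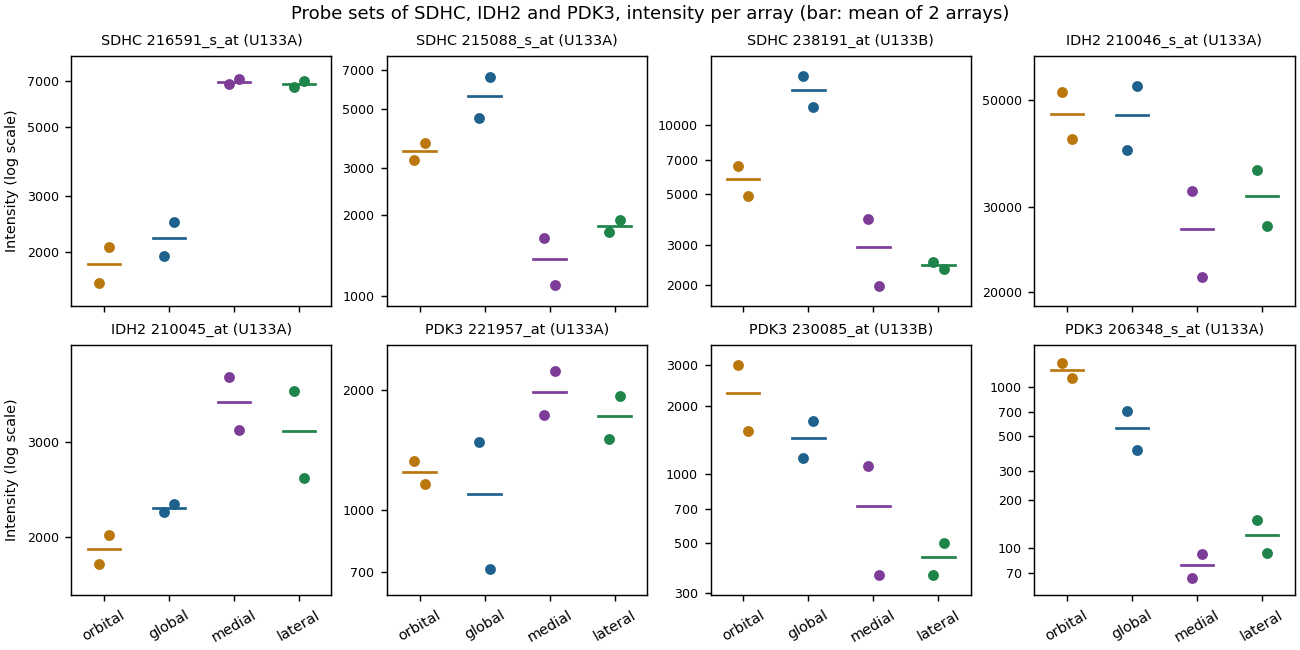
Intensity (vertical axis, log scale, authors' scaled units) on each array for probe sets of SDHC, IDH2 and PDK3, with orbital and global layer beside medial and lateral rectus. Points are single arrays and bars the mean of 2; SDHC 216591_s_at and IDH2 210045_at are lower in the layers, and SDHC 215088_s_at, SDHC 238191_at and IDH2 210046_s_at are higher.

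MDH2 was the U133A member that rose furthest in log2 terms in the layers. Its brightest probe set read 13708.0 and 11668.2 in medial and 14892.8 and 12919.2 in lateral rectus, beside the layer values given above. It averaged 42798 ± 13300 in the layers and 13297 ± 1355 in whole muscle, with no overlap, and rose by 1.64 ± 0.204 (adjusted p = 1.28e-04), while 213333_at had -0.28. MDH1, with 87170.3 to 105888.2 in the layers and 79508.0 to 95579.7 in whole muscle, had 0.11 and did not pass. ME1 read 18291.7, 17630.3, 28208.0 and 19923.4 on the layer arrays and 12243.0, 10001.7, 11994.2 and 12209.4 on the whole muscle arrays. These did not overlap, and ME1 rose by 0.83 (adjusted p = 0.00223), a call lost with quantile normalization, and its other tested probe set had -0.11. The brightest ME2 probe set read 2276.3, 1274.3, 1870.9 and 1467.5 on the layer arrays and 4376.4, 3778.9, 5037.1 and 4369.3 on the whole muscle arrays. ME2 fell by 1.38 there (SE 0.209, adjusted p = 3.81e-04) and by 0.77 in 210154_at, the second of which was lost with quantile normalization, and had 0.53, not called, in 209397_at. PC read 54.3 to 423.7 in the layers and 223.5 to 1280.7 in whole muscle and was not tested.

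Among 27 U133A genes, 13 had several tested probe sets in this comparison, and 7 of these had probe sets of both signs. Of the 25 other pathway genes, 14 were tested in 18 probe sets on U133A. Called higher were 6, against 18.6% of all probe sets, and called lower 3, against 30.1% of all. LIPT1, a lipoyltransferase, rose by 1.11 (adjusted p = 0.00106), SLC25A11, the malate carrier of the shuttle, by 1.07 (0.00323) and SLC25A12 by 0.85 (0.00412). A second SLC25A11 probe set had 0.09 and a second, brighter one of SLC25A12 had 0.34, neither called. SDHAF1, an assembly factor of complex II, fell by 0.95 (0.00151), NNT, the mitochondrial transhydrogenase, by 0.66 (0.00664). A second U133A probe set of SDHAF1 had 0.43 and a second of NNT had 0.07, neither called. PDPR, a regulatory subunit of the pyruvate dehydrogenase phosphatase, was also lower, at -1.99 (0.00409). On U133B, 1 of 6 probe sets passed, against 42.8% of all, and it was for PDPR at 1.46 (1.4e-04), the opposite sign. The other PDPR probe set there had 0.13 and was not called.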

How the data were processed

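The authors deposited a linear intensity for each probe set on U133A and U133B, with a trimmed mean (2% off either end) of 1500.2 to 1500.7 on each array. Which summary software was used is not given in the sources used here, nor are detection calls. Arrays were grouped by title. Arrays were brought to the same trimmed mean, intensities under the pooled 20th percentile (146.487 for U133A, 218.465 for U133B) were set to that value, and all were put on the log2 scale. Tests took probe sets whose mean log2 on the compared arrays was at or over log2 of the pooled median (653.942 and 802.702), leaving out 68 control probe sets per table. The tables were analysed separately with limma 3.58.1 in R 4.3.3 (intensity trend, 2 groups), two-sided, adjusted over all kept probe sets, and tested on simulated data first. Printed intensities are as deposited. Members, lists and tests were chosen with earlier results of these data known.

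The text names every member. A gene is represented by its 1-symbol probe set with the highest mean, or by a probe set with several symbols where it has no other. Values per array, or their range, were given for members past the threshold, smallest p first, up to a fixed number per comparison and array type. Some calls beyond that number have no values per array. Where fewer than 4 passed, values were given for the members with the smallest p, up to 4. Other pathway genes were named where they passed, up to 6 per comparison. Values of further probe sets of a member were added after they were seen. Alternatives were quantile normalization, other floors and filters, no variance trend, weights for arrays, a fit of all groups together, a replicate block and each array left out in turn. Replicate numbers of the titles are shared by the layers; deviations of same-numbered arrays correlated at 0.257 on U133A and 0.132 on U133B over probe sets, and with only 2 pairs this does not show pairing. Figures used Python 3.11.15 with matplotlib 3.10.9.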

Additional observations from a re-analysis of the deposited data

Results flagged for a closer look

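In each group of 4 arrays (layers or whole muscle), a probe set's highest or lowest array was checked for its gap to the others. Of 112 groups checked, 5 had a far value, and chance gives about 1 in 20. DLST on U133A read 7763.6 on lateral rectus replicate 1, above 4410.1 to 4672.5 on the other whole muscle arrays. ME1 204059_s_at on U133A read 10001.7 on medial rectus replicate 2, below 11994.2 to 12243 on the others. PDK4 on U133A read 387.9 on orbital layer replicate 2, below 1288.5 to 1430.2 on the other layer arrays. SUCLA2 on U133A read 12479.6 on global layer replicate 1, above 7836.8 to 8457.5. SDHC 238056_at on U133B read 1926.1 on orbital layer replicate 1, above 1280.6 to 1360.2.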

How the results depend on the processing

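No member passed between the layers or between the muscles under any alternative, and no called member changed sign in any comparison. Between layers and whole muscle, 36 member calls were lost and 11 gained over 728 values on U133A, and 17 lost and 0 gained over 155 on U133B. Uncalled members changed sign in 31 of 600 values between the layers and 42 of 556 between the muscles on U133A. With arrays left out in turn, the U133A member median was -0.207 to -0.129 between the layers, -0.15 to 0.0275 between the muscles and -0.0366 to 0.114 for layers against whole muscle; a filter at the 75th percentile gave 0.197 for the last, with 5 other pathway calls. On U133B the layer median was -0.00569 with no filter, -0.535 with the 75th percentile filter and -0.198 to 0.322 with arrays left out, and the muscle median was 0.0221 with quantile normalization and -0.0613 to 0.235 with arrays left out. For layers against whole muscle on U133B, member calls were 3 with no filter, 3 with the 75th percentile filter and 2 to 5 with arrays left out (2 without lateral rectus replicate 2), with medians of 0.0975, 0.699 and 0.239 to 0.637, and other pathway calls were 3 with the 40th percentile floor, 3 with no filter and 1 to 2 with arrays left out. The causes were not tested. The replicate block left 0 member calls between the layers on both tables, with 13 U133A members at an unadjusted p under 0.05; over all probe sets it called 92 against 39 on U133A and 26 against 2 on U133B. Calls over all probe sets between the layers ran from 0 (no filter) to 144 (without global layer replicate 2) on U133A and from 0 to 28 on U133B. Between the muscles on U133A they were 0, but 7 with the 75th percentile filter, 1 without medial rectus replicate 2 and 9 without medial rectus replicate 1.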
